A study of Mus musculus with 10 samples.

Results

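The genes described here build and load major histocompatibility complex (MHC) class I molecules. They are B2m, H2-D1, H2-K1, H2-T23, Tap1, Tap2, Tapbp, Psmb8, Psmb9 and Psmb10, 10 genes among the 8949 gene symbols annotated on the array. Every probe set whose annotation lists one of these symbols was taken, also where it lists others. This gave 20 probe sets among 12422, of which 16 list 1 symbol and 4 list several. All 20 lay above the intensity floor on at least 2 of the 9 strain arrays and were tested, and the tested set held 9899 probe sets.

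The study measured total RNA of mouse mammary tumours on Affymetrix oligonucleotide arrays, and its title places it in mice with the MMTV-PyMT transgene. That transgene places polyomavirus middle T antigen under a mammary tumour virus promoter active in mammary epithelium, so the tumours are epithelial and arise in a host with its own immune cells. All 10 arrays are labelled as adult females of 90 days of age and of the strain FVB/Nj. The titles of 9 arrays carry a strain name, on which the groups rest: FVBn had 1 array, and ILn, LP, MOLF and NZB had 2 each, lettered A and B. The title of the last array names no strain, and it entered no comparison. The titles call the strain arrays a mix and do not say what was mixed. Whether the A and B arrays stem from different animals is not stated, so the p-values rest on a spread between arrays that may be purely technical.

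An MHC class I molecule is a polymorphic heavy chain, encoded in the mouse by H2-K1, H2-D1 and related genes, paired with the light chain beta-2-microglobulin (B2m). It shows cytosolic peptides to CD8 T cells. The peptides are cut by the proteasome, whose interferon-induced subunits are Psmb8, Psmb9 and Psmb10, carried into the endoplasmic reticulum by the Tap1 and Tap2 transporter, and loaded with the help of tapasin (Tapbp). In the RefSeq table, Tapbp, H2-K1, Psmb9, Tap1, Psmb8, Tap2, H2-D1 and H2-T23 follow each other in this order along chromosome 17, in the H2 complex. B2m lies on chromosome 2 and Psmb10 on chromosome 8. Inbred strains can carry different H2 haplotypes, so a heavy chain probe set may match the transcript of one strain better than that of another. For those probe sets a difference in level and a difference in match cannot be told apart here. Whether they also read transcripts of other class I genes was not tested, even where the annotation names no other gene. The match of the other probe sets, B2m included, to the transcript of each strain was not examined either.

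Promoter windows, from 250 bases before to 50 after an annotated start, were found in the RefSeq table of GRCm38.p6 for 9 of the 10 genes, all but Tap2. H2-K1 had another window, 34000284 to 34000583, that is not printed. Both H2-K1 windows lie inside the annotated gene, which runs from 33996012 to 34000619. The 3 printed here belong to the light chain and to both classical heavy chains, on which the results turn. Capitals mark matches to the motifs searched on both strands, of which these windows hold the first and the second. The first was TTTC, any 2 bases and TTTC, the core of an interferon-stimulated response element, held by 3.44% of all 32851 windows. The second was GGGA, any base, T, any 2 bases and CC, a kB-like site, held by 4.16%. The third was TTCNNNGAA, an interferon gamma activated site, held by 8.30%.
B2m, chr2:122147437-122147736, plus strand: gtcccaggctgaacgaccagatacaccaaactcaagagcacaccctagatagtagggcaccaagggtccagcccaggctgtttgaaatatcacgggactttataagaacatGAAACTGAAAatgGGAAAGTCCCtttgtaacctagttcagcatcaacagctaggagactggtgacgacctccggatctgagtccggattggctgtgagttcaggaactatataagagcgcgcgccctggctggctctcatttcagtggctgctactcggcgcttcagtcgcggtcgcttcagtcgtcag
H2-K1, chr17:34000298-34000597, minus strand: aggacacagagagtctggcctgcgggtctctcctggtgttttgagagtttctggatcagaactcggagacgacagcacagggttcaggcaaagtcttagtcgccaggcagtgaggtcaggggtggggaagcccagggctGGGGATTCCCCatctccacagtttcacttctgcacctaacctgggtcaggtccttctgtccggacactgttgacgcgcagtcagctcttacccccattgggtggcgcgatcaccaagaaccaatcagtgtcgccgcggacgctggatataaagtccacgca
H2-D1, chr17:35262844-35263143, plus strand: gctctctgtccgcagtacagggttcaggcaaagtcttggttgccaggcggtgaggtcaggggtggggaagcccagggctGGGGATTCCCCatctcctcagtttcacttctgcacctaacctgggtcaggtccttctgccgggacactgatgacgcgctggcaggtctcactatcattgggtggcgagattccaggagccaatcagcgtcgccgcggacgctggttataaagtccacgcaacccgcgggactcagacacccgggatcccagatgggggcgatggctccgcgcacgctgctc
The B2m window held 1 match to the first motif and 1 to the second, and the H2-K1 and H2-D1 windows each held 2 overlapping matches to the second. The longest run of bases shared by the H2-K1 and H2-D1 windows was 47 bases, and it contained those matches. The H2-T23 window held 1 match to the first motif and the Psmb8 window 1 match to the third. The windows of Tap1, Tapbp, Psmb9 and Psmb10 held none of these letters. Those of Tap1 and Psmb9, which are transcribed away from each other, shared 275 bases. A match describes letters in the reference genome and not binding in these tumours. Only these patterns were searched, so a window without a match, those of H2-K1 and H2-D1 for the first motif included, may still hold a variant of the element.

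Values are quantile normalized log2 intensity, and differences are differences of log2 intensity with the standard error (SE) of the limma fit. A probe set was called where limma gave an adjusted p under 0.05 over all tested probe sets. MOLF A and NZB B were unlike the remaining strain arrays: the correlation across probe sets was 0.903 within MOLF and 0.890 within NZB, against 0.981 within ILn and 0.971 within LP. The log2 ratio of the 3' to the 5' actin probe sets, a measure of RNA integrity, was 0.22 to 0.28 for FVBn and ILn, and 0.60 to 1.12 for the arrays of LP, MOLF and NZB. Because the tissue is bulk, fewer cells that express a gene and less RNA per cell cannot be told apart.

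B2m, the light chain shared by all classical class I molecules, was lowest in MOLF. Its log2 intensity was 10.67 on the FVBn array, 10.61 and 10.67 in ILn, 11.77 and 11.60 in LP, 10.01 and 9.72 in MOLF, and 11.77 and 11.57 in NZB. Both MOLF arrays lay below all others, both LP and both NZB arrays lay above all others, and FVBn lay with ILn. B2m fell by 1.47 ± 0.128 (SE) in MOLF against the mean of the other 3 strains, 2.76-fold lower (limma adjusted p = 0.00515). In LP it was 0.96 ± 0.128 higher than in the other 3 strains (limma adjusted p = 0.0410). In NZB the difference was 0.94 ± 0.128 and did not pass (limma adjusted p = 0.0790). LP and NZB themselves differed by 0.01, with a 95% interval from -0.35 to 0.38. Its size and sign depended on the setting: the difference was 0.52 with median centring (limma adjusted p = 0.765) and -0.09 with MOLF A and NZB B left out (limma adjusted p = 0.929). Without MOLF A and NZB B, which left 1 array in each of those strains, the MOLF difference was -1.64 (limma adjusted p = 0.0943) and the LP difference 0.95 (limma adjusted p = 0.120). The LP call was lost in 16 of 17 alternative settings.

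**Figure D1:**
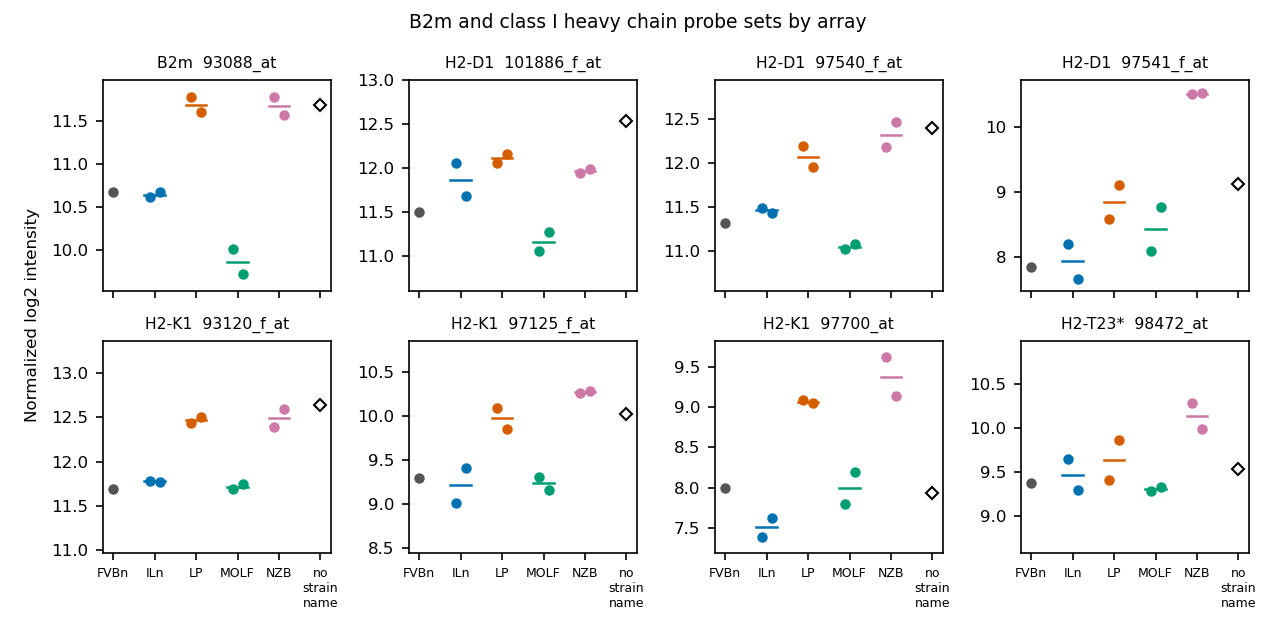
Normalized log2 intensity (vertical axis) of B2m and of the heavy chain probe sets above the floor on all 9 strain arrays except the one listing 10 symbols is plotted by the strain name in the title, 1 point per array, with a line at the mean of 2 arrays. An asterisk marks a probe set that lists several symbols and the open diamond is the array with no strain name. B2m spans 9.72 to 11.77 over the strain arrays, and H2-D1 97541_f_at sets both NZB arrays apart at 10.51 and 10.53.

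The other comparisons of B2m followed the same order. LP exceeded MOLF by 1.82 ± 0.157 (limma adjusted p = 0.00567) and MOLF was below NZB by a difference of -1.80 ± 0.157 (limma adjusted p = 0.00828). The call against LP was lost in 4 of 17 alternative settings. The call against NZB was lost in 7 of 17 alternative settings, with the title date as a block (-1.99, limma adjusted p = 0.0538) and with median centring (-1.71, limma adjusted p = 0.353) among them. Neighbours in the order LP, NZB, ILn and MOLF did not pass, with limma adjusted p-values of 0.993, 0.0609 and 0.185. LP and MOLF share the date given in the titles for their A arrays and for their B arrays. Within those dates LP exceeded MOLF by 1.76 and 1.88, and within the dates shared by ILn and NZB the difference of ILn from NZB was -0.95 and -1.10.

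H2-D1, a classical heavy chain, is the only symbol listed for 3 probe sets, and they ordered the strains differently. Whether their signal came from H2-D1 only or also from related class I transcripts was not tested. Probe set 101886_f_at gave 11.50 on FVBn, 12.06 and 11.68 in ILn, 12.06 and 12.16 in LP, 11.06 and 11.27 in MOLF, and 11.95 and 11.99 in NZB. Both MOLF arrays were below all others, and ILn, LP and NZB overlapped or lay close together. Probe set 97540_f_at gave 11.32 on FVBn, 11.49 and 11.43 in ILn, 12.19 and 11.95 in LP, 11.02 and 11.08 in MOLF, and 12.18 and 12.46 in NZB. MOLF was again lowest, with LP and NZB above ILn and FVBn. This probe set fell by 0.90 ± 0.125 in MOLF against the other 3 strains (limma adjusted p = 0.0387). With MOLF A and NZB B left out the difference was -0.80 (limma adjusted p = 0.323).

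Probe set 97541_f_at of H2-D1 gave 7.84 on FVBn, 8.19 and 7.66 in ILn, 8.58 and 9.10 in LP, 8.09 and 8.77 in MOLF, and 10.51 and 10.53 in NZB. Both NZB arrays lay far above all others, and MOLF overlapped with ILn and LP. NZB exceeded the other 3 strains by 2.12 ± 0.247, a 4.36-fold difference (limma adjusted p = 0.0485). Without MOLF A and NZB B it was 2.06 (limma adjusted p = 0.386). It also passed against ILn, where ILn minus NZB was -2.59 ± 0.302 (limma adjusted p = 0.0202), and against MOLF, where MOLF minus NZB was -2.09 ± 0.302 (limma adjusted p = 0.0497). The call against MOLF was lost in 16 of 17 alternative settings, among them the title date as a block (-1.66, limma adjusted p = 0.249), and the call against ILn in 11 of 17. The difference of LP from NZB was -1.68 ± 0.302 and did not pass (limma adjusted p = 0.258).

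**Figure D2:**
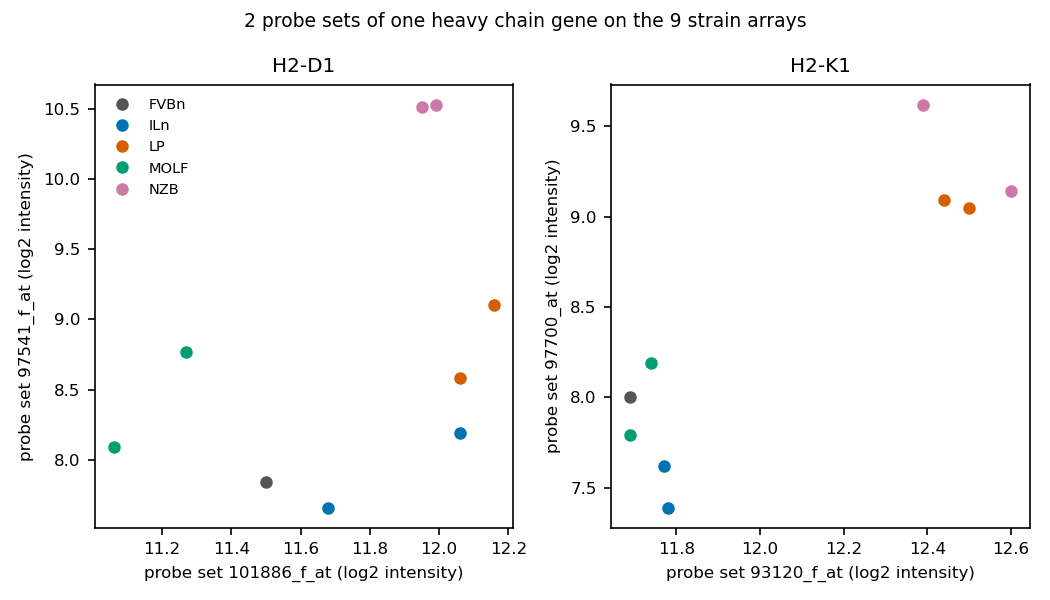
Each point is 1 of the 9 strain arrays, coloured by strain name, with the log2 intensity of one probe set of a gene on the horizontal axis and of another probe set of the same gene on the vertical axis. For H2-D1 the NZB arrays lie at 11.95 and 11.99 on the horizontal axis, among ILn and LP, and at 10.51 and 10.53 on the vertical axis, above all other arrays.

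The distance between 101886_f_at and 97541_f_at therefore varied with strain: it was 1.45 in NZB, 2.74 in MOLF, 3.27 in LP and 3.94 in ILn (means of 2 arrays). An exact permutation test of the F statistic over all ways to deal 8 arrays into 4 pairs gave p = 0.00952, the smallest it can give, and 0.0476 after adjustment over the 10 pairs of probe sets of one gene. This test was added after the values were seen. The adjusted value is under 0.05 only because the Tap1 pair, described below, had the same p. With the Tap1 pair set aside, the H2-D1 pair would not pass. The other 2 pairs of H2-D1 probe sets did not pass, each with an adjusted p of 0.114 in the exact test. With median centring in place of quantile normalization, 0 of the 10 pairs passed the exact test.

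H2-K1, the other classical heavy chain of the reference strain, was higher in LP and NZB than in ILn and MOLF on each probe set that lists it alone. Probe set 93120_f_at gave 11.69 on FVBn, 11.78 and 11.77 in ILn, 12.44 and 12.50 in LP, 11.69 and 11.74 in MOLF, and 12.39 and 12.60 in NZB. Probe set 97125_f_at gave 9.29 on FVBn, 9.01 and 9.41 in ILn, 10.09 and 9.85 in LP, 9.31 and 9.16 in MOLF, and 10.26 and 10.28 in NZB. On both, the LP and NZB arrays lay above every FVBn, ILn and MOLF array, but no comparison of a strain with the other 3 was called.

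Probe set 97700_at of H2-K1 gave 8.0 on FVBn, 7.39 and 7.62 in ILn, 9.09 and 9.05 in LP, 7.79 and 8.19 in MOLF, and 9.62 and 9.14 in NZB. ILn lay below all other arrays, and both NZB arrays lay above them, one by only a little. ILn minus NZB was -1.87 ± 0.239, a 3.65-fold difference (limma adjusted p = 0.0298). This call was lost in 12 of 17 alternative settings, among them the title date as a block (limma adjusted p = 0.0934), the array letter as a block (0.106) and leaving out MOLF A and NZB B (0.103). ILn against the other 3 strains, -1.31 ± 0.195, did not pass (limma adjusted p = 0.0532).

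H2-T23 encodes the nonclassical heavy chain Qa-1, which presents a narrow set of peptides to CD94/NKG2 receptors. Its probe set also lists the pseudogene H2-T-ps. It gave 9.37 on FVBn, 9.64 and 9.29 in ILn, 9.41 and 9.86 in LP, 9.28 and 9.33 in MOLF, and 10.28 and 9.98 in NZB. Both NZB arrays were highest, but NZB against the other 3 strains, 0.66 ± 0.174, did not pass (limma adjusted p = 0.378). Probe set 102161_f_at lists 10 symbols, H2-D1, H2-K1 and H2-T23 among them, and spanned 9.73 to 11.10 without a call. Probe sets 95773_at and 97174_r_at list H2-D1 or H2-K1 with H2-Q genes and were at the floor of 4.75 on most arrays. The first rose above it on MOLF A and NZB B alone, and the second on LP A, LP B and MOLF A.

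The heavy chains were then compared with B2m on the same array. The difference of a probe set from B2m was tested over ILn, LP, MOLF and NZB by the exact permutation test, with 19 probe sets adjusted together. None of the 10 heavy chain probe sets passed, and the lowest adjusted p was 0.0776. At an unadjusted p under 0.05 there were 5: 102161_f_at, 93120_f_at, 97125_f_at, 97700_at and the H2-T23 probe set. The loading probe sets did not pass either. Of those, Tap2, Psmb10 and each Tapbp probe set also had an unadjusted p under 0.05 in this test. The share over all tested probe sets was not computed for it. B2m itself varied between strains, so a nearly flat probe set can also vary in its difference from B2m. Tapbp 102689_at, with a range of 0.44 over the 9 strain arrays, had the largest F statistic of the 19 (79.5). The unadjusted counts are therefore not a result about the heavy chains alone. For 93120_f_at the difference from B2m was 1.85 ± 0.247 (SD, n = 2) in MOLF, 1.13 ± 0.049 in ILn, 0.83 ± 0.293 in NZB and 0.79 ± 0.164 in LP. It was thus largest in MOLF, where B2m was lowest, and its exact permutation p of 0.0476 became 0.0905 after adjustment. Against the mean of the 6 loading genes none of the heavy chain probe sets passed either, and the value for 97541_f_at was an adjusted p of 0.0905 in the exact test.

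No probe set of the transporter genes was called. Tap1 probe set 103035_at gave 7.66 on FVBn, 8.15 and 8.13 in ILn, 8.90 and 9.18 in LP, 7.58 and 7.86 in MOLF, and 8.93 and 8.42 in NZB. MOLF and FVBn were lowest, LP and NZB highest. MOLF minus the other 3 strains was -0.90 ± 0.196 (limma adjusted p = 0.218).

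The second Tap1 probe set, 162278_r_at, lay near the floor, between 4.76 and 6.03, and was highest in ILn. The pair of Tap1 probe sets also passed the exact permutation test added after the values were seen (adjusted p = 0.0476), but with one of them this close to the floor of 4.75 the distance between them is not given. Tap2 was 6.57 on FVBn, 6.61 and 6.58 in ILn, 7.66 and 7.60 in LP, 7.28 and 7.33 in MOLF, and 7.45 and 6.92 in NZB. Unlike B2m, Tap2 was lowest in ILn and FVBn, and MOLF lay above them. ILn minus the other 3 strains was -0.78 ± 0.246 and did not pass (limma adjusted p = 0.472).

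**Figure D3:**
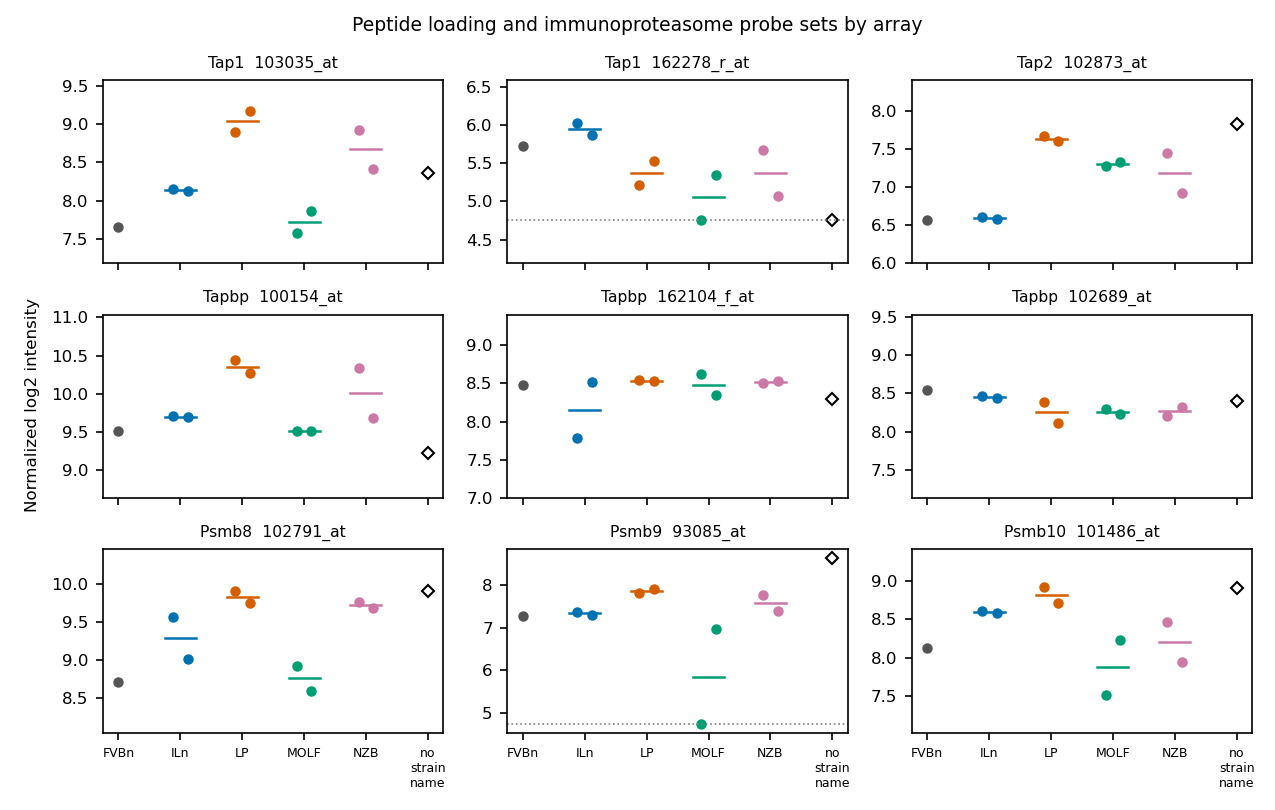
Normalized log2 intensity (vertical axis) of the 9 probe sets of the peptide loading genes is plotted by strain name, 1 point per array, with a line at the mean of 2 arrays, a dotted line at the floor and an open diamond for the array with no strain name. Tap2 is at 6.57 to 6.61 in FVBn and ILn and at 6.92 to 7.66 on the others, and Psmb9 is at the floor on MOLF A.

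Tapbp, which bridges the transporter and the empty class I molecule, was read by 3 probe sets that differed in pattern. Probe set 100154_at gave 9.51 on FVBn, 9.71 and 9.69 in ILn, 10.44 and 10.27 in LP, 9.51 and 9.51 in MOLF, and 10.34 and 9.68 in NZB, with LP high and MOLF and FVBn low. Probe set 162104_f_at spanned 7.78 to 8.62 and 102689_at spanned 8.11 to 8.55. By strain mean the first ran from LP through NZB and MOLF to ILn, and the second from ILn through NZB and MOLF to LP, with the arrays of neighbouring strains overlapping or close. None of the 3 was called.

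The immunoproteasome subunits had their lowest mean in MOLF and their highest in LP among the 4 strains with 2 arrays, without a call. Psmb8 gave 8.72 on FVBn, 9.57 and 9.01 in ILn, 9.90 and 9.75 in LP, 8.93 and 8.60 in MOLF, and 9.76 and 9.69 in NZB. MOLF minus the other 3 strains was -0.85 ± 0.179 (limma adjusted p = 0.203). Psmb9 gave 7.27 on FVBn, 7.37 and 7.30 in ILn, 7.81 and 7.90 in LP, 4.75 and 6.97 in MOLF, and 7.77 and 7.39 in NZB. MOLF A was at the floor and MOLF B below every array of the other strains. Psmb10 spanned 7.51 to 8.92, with MOLF A lowest and LP A highest.

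Over the 20 probe sets, the F test over the 4 strains called 4: B2m, H2-D1 97540_f_at and 97541_f_at, and H2-K1 97700_at. It called 0.748% of all tested probe sets. For MOLF 2 of 20 were called lower, against 0.283% of all probe sets. For LP 1 was called higher, against 0.192%, and for NZB 1 was called higher, against 0.0404%. For ILn limma called 0, against 0.404% of all in either direction. The comparison of the 4 strains with the single FVBn array also called 0 with limma, against 0.313% of all. At an unadjusted p under 0.05 there were 14 of 20 for MOLF (6.42% of all tested probe sets), 12 for LP (5.69%), 8 for NZB (8.40%), 8 for ILn (7.11%) and 5 for the comparison with FVBn (3.41%). With median centring these counts were 8 for MOLF, 10 for LP, 2 for NZB, 4 for ILn and 0 for the comparison with FVBn. The excess over the background thus depended on the scaling, most of all in NZB and in the comparison with FVBn.

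The members shared a direction more often than they passed the test. In MOLF 16 of 20 probe sets lay below the other 3 strains, with a median difference of -0.62, against 0.01 over all tested probe sets. For 9 of the 20 both MOLF arrays lay below all 6 arrays of the other 3 strains, against 3.38% of all tested probe sets. The corresponding counts were 4 for LP higher (4.47%), 4 for NZB higher (3.74%) and 2 for ILn lower (3.77%). The median difference was 0.51 in LP, 0.40 in NZB and -0.35 in ILn, against -0.007, -0.001 and -0.02 over all. With median centring the medians were 0.75 in LP, -0.73 in MOLF, -0.24 in ILn and 0.21 in NZB, against 0.07, -0.052, 0.044 and -0.07 over all. In NZB 11 of the 20 then lay above the other 3 strains, in place of 16. These comparisons share arrays, so their medians are not independent. Several of the 20 probe sets list the same gene, so the counts are not counts of independent observations either.

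**Figure D4:**
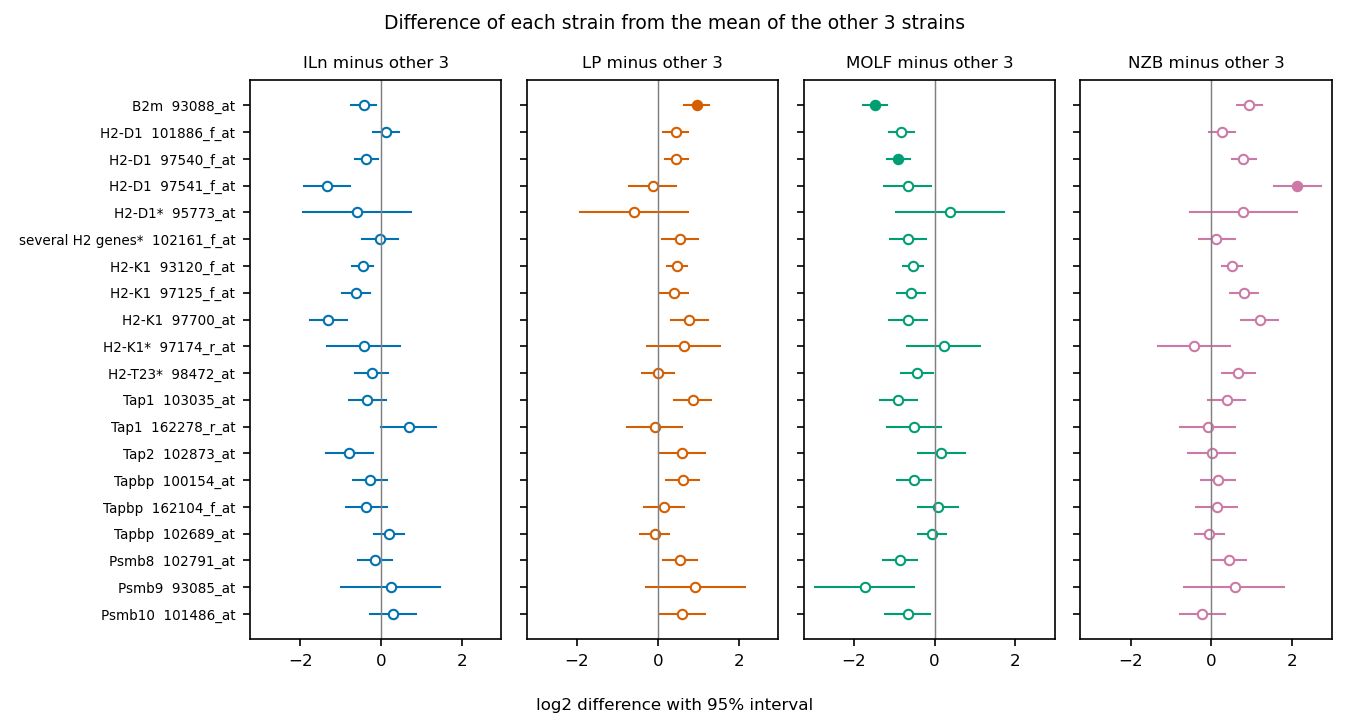
Each panel shows, for 1 strain, the log2 difference from the mean of the other 3 strains (horizontal axis) with its 95% interval for the 20 probe sets, and filled points were called by limma. B2m is filled at -1.47 in MOLF and 0.96 in LP, H2-D1 97540_f_at at -0.90 in MOLF and H2-D1 97541_f_at at 2.12 in NZB.

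Among pairs of strains, ILn against NZB called 2 of 20 (0.343% of all tested probe sets), LP against MOLF 1 (0.444%) and MOLF against NZB 3 (0.384%). At an unadjusted p under 0.05 these held 7 (9.22% of all), 12 (6.27%) and 12 (6.63%). With limma, ILn against LP called 0 of 20 (0.434% of all), with 10 at an unadjusted p under 0.05 (5.77% of all). ILn against MOLF also called 0 with limma (0.404%), with 7 at an unadjusted p under 0.05 (7.26% of all). For LP against NZB limma called 0 as well (0.0101%), with 1 at an unadjusted p under 0.05 (6.69% of all), a share near the background.

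Few genes on the lists of related genes passed. Of other class I heavy chains 12 were tested with limma and 0 were called in the F test, and the lowest adjusted p-values were 0.294 for H2-Q1 and 0.296 for H2-Q4. H2-K2, given below among the genes most like B2m, was not on this list. There were 3 heavy chains of the list at an unadjusted p under 0.05 in the F test. Over all tested probe sets the share was 7.90%, to be set beside the counts of each list below. Limma called 0 of 9 other loading and trimming factors and 0 of 3 constitutive proteasome subunits, with 0 of both at an unadjusted p under 0.05. It called 0 of 14 class I regulators and interferon gamma signalling genes, with 3 at an unadjusted p under 0.05. Psmb6, the constitutive counterpart of Psmb9, had an adjusted p of 0.723 in the limma F test. Of 10 MHC class II genes 1 was called, H2-Eb1, with a MOLF difference of -3.44 (limma adjusted p = 0.0141) and with MOLF B at the floor. There were 5 of the 10 at an unadjusted p under 0.05 in the F test, H2-Eb1 among them. Of these, H2-Ab1 (-1.09), Cd74 (-0.62) and H2-Aa (-0.51) also had lower values in MOLF without passing. The last of these, H2-Ea, had its largest difference in NZB (2.33). In MOLF, H2-Ob (0.61), H2-DMb2 (0.46) and H2-DMb1 (0.22) were higher and the rest of the list lower.

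Markers of other cells moved with some of these values. The mean of 13 tested skeletal muscle genes, centred over the 9 arrays, was 1.5 and 1.47 in LP, 1.15 and 1.13 in NZB, -0.33 and -0.31 in ILn, -1.30 and -1.36 in MOLF, and -1.94 on FVBn. It was high in LP and NZB and low in MOLF, as B2m was, but FVBn lay below MOLF. Limma called 6 of the 13 higher in LP (0.192% of all tested probe sets) and 6 lower in MOLF (0.283%). All 13 had an unadjusted p under 0.05 in the F test (7.90% of all). Their summed intensity was 12300 and 13100 in LP, 10600 and 11000 in NZB, 4000 and 4090 in ILn, 1830 and 2390 in MOLF and 1470 on FVBn. Of the 14 genes listed 1 was at the floor on all 9 arrays. The part of muscle RNA in the B2m result was not tested.

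Of the T and NK cell list 11 were tested, 0 were called by limma and 0 had an unadjusted p under 0.05 in the F test, and Cd3g was at the floor of 4.75 on all strain arrays but MOLF A (6.88) and NZB B (7.26). The list's summed intensity was 350 on FVBn, 434 to 520 in ILn, 388 to 511 in LP, 425 to 690 in MOLF and 398 to 881 in NZB. Over all tested probe sets 7.90% had an unadjusted p under 0.05 in the F test. In the F test limma called 0 of 15 macrophage markers (3 at an unadjusted p under 0.05), 0 of 9 B cell markers (0), 0 of 7 dendritic cell markers (0) and 0 of 8 endothelial markers (1). Of 12 epithelial markers, 4 of them at an unadjusted p under 0.05, it called 1, Krt19, lower in MOLF by a difference of -1.19 (limma adjusted p = 0.0274). The summed intensity of the epithelial list was 8410 to 12000 over the strain arrays, and 2 of its 14 genes were at the floor throughout. Of 11 fibroblast markers 1 was called, Col3a1, higher in ILn by 1.02 (limma adjusted p = 0.0160), and 8 had an unadjusted p under 0.05 in the F test, with a median ILn difference of 0.98 over the list. Of 6 salivary gland genes 5 were called in the F test, with a summed intensity of 30400 on FVBn, 20400 and 21700 in ILn, 4300 and 5020 in MOLF, 1160 and 2010 in LP, and 631 and 644 in NZB. Their part in the results was not tested.

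**Figure D5:**
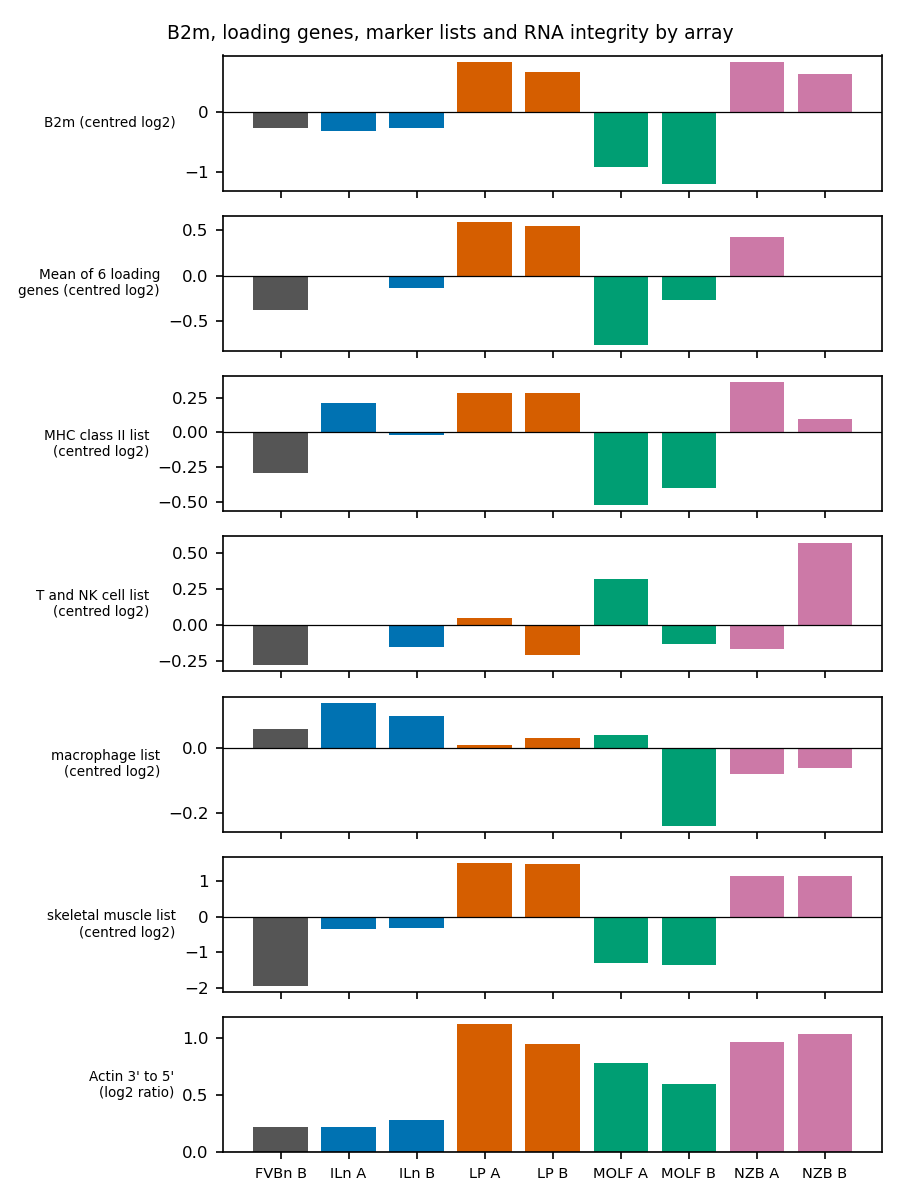
Bars give, for each of the 9 strain arrays, centred log2 values of B2m, of the mean of 6 loading genes and of 4 marker lists, and the log2 ratio of the 3' to the 5' actin probe sets, each on its own vertical scale. B2m and the skeletal muscle list are above 0 on the LP and NZB arrays and below 0 on the FVBn, ILn and MOLF arrays.

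The genes whose pattern over the 9 arrays was most like B2m, among 7089 genes, were Ifit3 (Pearson r = 0.973), Lgals3bp (0.961), Ogfr (0.960), H2-K2 (0.955), Eno3 (0.953) and Smyd1 (0.951). Ifit3 is an interferon-induced gene, and Eno3 and Smyd1 are expressed in muscle. For the mean of the 6 loading genes they were Clk3 (0.983), Ryr1 (0.976), Mb (0.971), Ifit1 (0.967), Tpm2 (0.962) and Aldoa (0.959). Among the members, H2-D1 97540_f_at followed B2m most closely (r = 0.943) and 97541_f_at less closely (r = 0.601). The 9 points include pairs of arrays of 1 strain and were normalized together, and these correlations are descriptions.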

How the data were processed

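Per the labels' protocols, total RNA of mouse mammary tumours received a biotin label before hybridisation to mg_u74av2 arrays (Affymetrix). The authors deposited 1 intensity value per probe set and array on a linear scale. The summarisation step and its settings are not given here by any label or header. The trimmed mean intensity was 150 on all arrays except ILn A (499.9). Groups came from strain names in the titles.

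Of 12488 probe sets 66 controls were left out. The 9 strain arrays were quantile normalized on the log2 scale, and values below the 30th percentile (27.0, log2 4.75) were raised to it. Probe sets above this floor on at least 2 arrays (9899) were tested in R 4.3.3 with limma 3.58.1 (lmFit, eBayes with an intensity trend, Benjamini-Hochberg, threshold 0.05). The fit had 4 residual degrees of freedom, and the number of arrays limits the precision. FVBn, with 1 array, took its spread from the rest. All groups shared 1 spread per probe set, although A minus B differences had an SD of 0.913 in NZB, 0.863 in MOLF, 0.467 in LP and 0.379 in ILn. The scripts were tested on simulated data.

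Symbols came from the platform annotation, updated through Entrez identifiers with the RefSeq table. All member probe sets are named, with the 6 genes most like B2m and most like the loading genes. From the lists only some genes are named, and the called skeletal muscle and salivary gland genes are not. Cd3g was named although it was not among the genes with the smallest p in its list. The members and lists were chosen with earlier results of these data known. Array letters did not pair the strains. The correlation of A minus B differences was -0.707 for MOLF with NZB and ran from -0.023 to 0.131 for the other pairs of strains.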

Additional observations from a re-analysis of the deposited data

Results flagged for a closer look

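On the array whose title names no strain, 4 member probe sets lay above the highest of the 9 strain arrays, 2 lay below the lowest and 14 lay within their range. Those above were H2-D1 101886_f_at at 12.54, H2-K1 93120_f_at at 12.64, Tap2 at 7.83 and Psmb9 at 8.62 on the log2 scale. The array belongs to no group, and no comparison was made with it.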

How the results depend on the processing

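The main settings called 4 member probe sets over the 4 strains, 0 for ILn, 1 for LP, 2 for MOLF, 1 for NZB and 6 over the pairs of strains. None of the 14 single calls reversed under 17 alternatives, but the 4 calls of the F test have no sign and could not reverse. Median centring called 0 in each, and so did leaving out MOLF A and NZB B. Without a filter on dim probe sets the counts were 1 over the strains, 0 for LP, 1 for MOLF, 0 for NZB and 2 over pairs. The same counts, 1, 0, 1, 0 and 2, came with the title date as a block and with the array letter as a replicate block. Without an intensity trend they were 0, 0, 1, 0 and 2. A floor at the 10th percentile gave 0 for LP and 0 for NZB. The stricter filter gave 1 for ILn, 2 for NZB and 10 over pairs. The array letter crossed in NZB, chosen after seeing the data, gave 1 for ILn, 0 for LP and 0 for NZB. Leaving out 1 array at a time gave 0 to 2 over the strains, 0 to 0 for LP, 0 to 1 for MOLF, 0 to 0 for NZB and 0 to 5 over pairs.

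The B2m difference in MOLF passed in 12 of the 17 alternatives, with values from -1.67 to -1.32. It did not pass with median centring (limma adjusted p = 0.172), without ILn A (0.0514), without ILn B (0.0578), without MOLF B (0.0547) or without both MOLF A and NZB B (0.0943). The B2m difference in LP passed in 1 of 17 alternatives, the stricter filter, with values from 0.84 to 1.30, and the NZB difference of H2-D1 97541_f_at passed in the same 1, with values from 1.83 to 2.23. The MOLF difference of H2-D1 97540_f_at passed in 3 of 17 and was lost without any 1 of the 8 arrays of the 4 strains (limma adjusted p = 0.0687 to 0.304). Both same-gene pairs that passed the exact test were lost with median centring. The cause was not tested.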
